A study of Mus musculus with 38 samples.

Results

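The 10 genes described here are usually tied to epithelium and were followed through 4 populations of mouse lung macrophages. They are the keratins Krt19, Krt79, Krt8 and Krt18, the adhesion molecules Epcam and Cdh1, the junction protein Perp, and Trim29, Spint1 and Plet1. They make up 10 of the 43346 genes counted and were chosen by their levels in alveolar macrophages against the other populations, so that difference is described here and not tested. RNA was sequenced from 12 libraries, 3 from each population, sorted from the lungs of naive C57Bl/6 mice of 8 to 10 weeks. Alveolar macrophages (AM), the resident phagocytes of the air spaces, were sorted as CD11c+ and Siglec F+ cells without B220, CD3, NK1.1, Gr1, CD11b or CD103. The 3 interstitial macrophage populations lie in the tissue between air space and vessel. They were live cells from a MerTK-enriched fraction, positive for CD64 and CD11b and negative for CD24, CD43, Siglec F and Ly6G as well as for the lymphocyte markers CD3, NK1.1 and B220. IM1 was MHCII low and CD206 high, IM2 was high for both, and IM3 was MHCII high and CD206 low. No group carried a treatment, an allele or a transgene. The gates given in the labels include neither EpCAM nor CD45. Whether the replicates A, B and C of a population came from separate animals or separate pools is not given in the labels, so the spread behind each p-value is that between libraries and may be technical.

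Keratins are the intermediate filament proteins of epithelial cells. Each filament pairs a type I chain, such as Krt18 or Krt19, with a type II chain, such as Krt8 or Krt79, and simple epithelia, the lung's included, are known for Krt8 with Krt18. E-cadherin (Cdh1) joins neighbouring cells at adherens junctions, where catenins tie it to actin, and Epcam is a homophilic adhesion molecule of epithelial surfaces. Perp is a tetraspan membrane protein of desmosomes, the junctions that anchor keratin filaments.

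The libraries held between 11818981 and 15758326 assigned reads, so that 3 counts, the upper limit that a count of 0 allows, corresponded to between 0.19 and 0.254 CPM (reads of a gene scaled to library size). The limits cover counting error only. The sorted populations carried their own markers. The 12 AM markers, which include the chitinase-like Chil3 and the surface receptor Siglecf, summed to between 55200 and 61900 CPM in AM and to between 201 and 594 CPM in the interstitial libraries. The 8 interstitial markers, which include the complement chains C1qa, C1qb and C1qc, summed to between 17100 and 43700 CPM in the interstitial libraries and to between 32.9 and 36.1 CPM in AM. In these bulk samples, fewer cells of a type and less RNA per cell cannot be told apart.

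Promoter windows from 250 bases before to 50 after the gene start were taken from the RefSeq table (build GRCm38.p6), which matched 6 of the 10 genes: Krt79, Krt8, Krt18, Epcam, Spint1 and Plet1. Those of 4 genes are shown, 5′ to 3′ on the strand of the gene, because their genes have unlike patterns. Krt79 (chr15:101940275-101940574, minus strand) and Plet1 (chr9:50494275-50494574, plus strand) are high in AM alone, Krt8 (chr15:102004293-102004592, minus strand) is near 0 in AM, and Spint1 (chr2:119237110-119237409, plus strand) is high in AM and in IM3. Capitals mark matches to the motifs searched.
Krt79: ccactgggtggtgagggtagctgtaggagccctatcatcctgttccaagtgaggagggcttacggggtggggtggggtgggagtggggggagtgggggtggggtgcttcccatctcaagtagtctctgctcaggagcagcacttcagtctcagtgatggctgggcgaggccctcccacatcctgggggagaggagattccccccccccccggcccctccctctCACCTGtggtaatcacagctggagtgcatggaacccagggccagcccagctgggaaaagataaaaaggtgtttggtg
Krt8: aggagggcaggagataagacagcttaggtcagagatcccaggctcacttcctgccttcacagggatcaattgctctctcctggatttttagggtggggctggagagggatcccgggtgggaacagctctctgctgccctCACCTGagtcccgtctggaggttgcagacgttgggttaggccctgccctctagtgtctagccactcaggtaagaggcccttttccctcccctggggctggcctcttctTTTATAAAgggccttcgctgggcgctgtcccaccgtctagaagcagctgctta
Plet1: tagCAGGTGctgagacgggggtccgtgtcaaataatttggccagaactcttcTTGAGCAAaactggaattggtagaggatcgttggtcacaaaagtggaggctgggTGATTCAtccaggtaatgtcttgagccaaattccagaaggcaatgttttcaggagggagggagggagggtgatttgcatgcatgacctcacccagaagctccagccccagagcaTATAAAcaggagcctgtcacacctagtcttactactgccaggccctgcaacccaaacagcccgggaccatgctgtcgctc
Spint1: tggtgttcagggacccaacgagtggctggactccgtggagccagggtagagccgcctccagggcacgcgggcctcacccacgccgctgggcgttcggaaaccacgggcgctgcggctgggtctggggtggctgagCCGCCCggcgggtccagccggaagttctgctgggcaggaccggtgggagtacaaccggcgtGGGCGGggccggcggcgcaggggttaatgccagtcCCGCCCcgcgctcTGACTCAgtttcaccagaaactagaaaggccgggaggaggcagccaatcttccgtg
The motifs were searched on both strands as exact letters. CACCTG, an E-box that Snail and Zeb repressors of E-cadherin are known to bind, was found in 5 of the 6 windows and in 20.2% of 32851 promoters of the same length. Its matches began at position -27 from the start in Krt79, -111 in Krt8, -214 in Krt18, -187 and -19 in Epcam, and -247 in Plet1, so the gene near 0 in AM (Krt8) and the gene high in AM (Krt79) both held it. Spint1 had no such match in this window. It held instead 3 matches to GGGCGG (Sp1) and 1 to TGANTCA (AP-1) at -6. Plet1 held an AP-1 match at -144, TATAAA (the TATA box) at -30 and TTGCNNAA (C/EBP) at -198. Epcam held 1 Sp1 match at -58, and Krt8 held TATAAA overlapping its own reverse complement at -3 and -1. Of all promoters, 35.7% held the Sp1 letters, 7.81% the AP-1 letters, 13.6% the TATA box and 10.8% the C/EBP letters. GAGGAAGT (PU.1), found in 3.2% of all promoters, and AACCNGTT (grainyhead-like), found in 2.09%, were in none of the 6 windows. A match is a description of letters and not a measured site.

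Krt19 (ENSMUSG00000020911, mm10 chr11:100140810-100148665, minus strand), a type I keratin that is known for its short tail, had the highest level of the 10 genes. Its level in AM was 783, 656 and 684 CPM in replicates A, B and C, or 708 ± 66.6 (SD, n = 3). In IM1 the libraries held 1.92, 3.45 and 3.7 CPM, in IM2 3.99, 0.982 and 0.82, and in IM3 0.662, 0.147 and 0.338. Every AM library was above every interstitial one, and the ratio of mean CPM was 234 against IM1, 366 against IM2 and 1850 against IM3. IM2 replicate A stood with the IM1 libraries rather than with the other IM2 libraries.

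Krt79 (ENSMUSG00000061397, mm10 chr15:101929332-101940324, minus strand) is a type II keratin that is known from the hair follicle and its sebaceous duct. It had 403, 383 and 347 CPM in the AM libraries, or 378 ± 28 (SD, n = 3). The interstitial libraries lay between 0 and 1.22 CPM, with 23 counts in all 3 IM1 libraries together, 11 in IM2 and 2 in IM3. The pooled ratio of AM to IM3 was 8230, with an exact 95% interval of 2280 to 67900 that covers counting error only. Krt79 thus had its lowest interstitial level in IM3, as did Krt19.

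The keratin pair of simple epithelium showed no such level in AM. Krt8 (ENSMUSG00000049382, mm10 chr15:101996711-102004342, minus strand) had 6, 0 and 0 counts in AM, against 5, 6 and 9 in IM1, 9, 11 and 5 in IM2 and 8, 3 and 0 in IM3. Krt18 (ENSMUSG00000023043, mm10 chr15:102028216-102032026, plus strand) had 1, 0 and 0 counts in AM and between 0 and 10 in the interstitial libraries. Both genes were below the low-count filter, which the other 8 passed. Summed over libraries, Krt8 had 6 counts in AM and 56 in the interstitial populations, and Krt18 had 1 and 35. The AM to interstitial ratio of Krt18 was 0.0874, with an exact 95% interval of 0.00215 to 0.52 for counting error. For Krt8, 48.1% of the transcript (941 of 1958 bases) matched the pseudogene Krt8-ps at 95% identity or more, and reads that map to several places were not counted, so its level is uncertain; no such copy was found for Krt18.

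Krt19 and Krt79 made up nearly all keratin reads of AM. Of the reads on 54 keratin genes, Krt19 took 62.1% to 65.2% and Krt79 33.1% to 36.3%, and together they took 98.1% to 98.4% in the 3 AM libraries. In the interstitial libraries they took 0.99% to 24.8% together. Scaled to exon length, the level of Krt19 (type I) was 1.94 to 2.23 times that of Krt79 (type II) within each AM library. Per kb of exon, the AM means were 381 CPM for Krt19 and 180 CPM for Krt79.

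**Figure D1:**
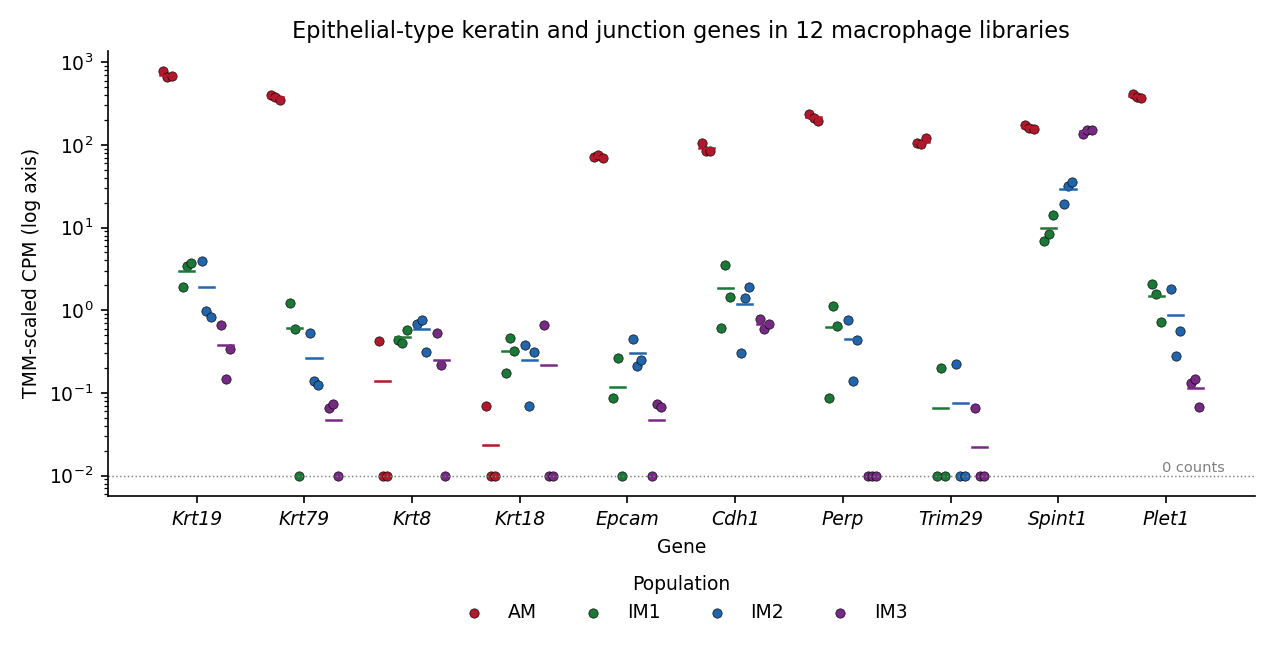
Level of each of the 10 genes (TMM-scaled CPM, log axis) in every library. Points are libraries, short lines are population means, and points on the dotted line have 0 counts. The AM libraries lie between 69.7 and 783 CPM for 8 genes and at or below 0.42 CPM for Krt8 and Krt18, and Spint1 alone also reaches over 100 CPM in IM3.

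Of the 50 other keratin genes, 41 had 0 counts in AM and 5 passed the low-count filter. With edgeR's quasi-likelihood test on all genes (Benjamini-Hochberg adjusted p under 0.05), 2 of these 5 were higher in AM, 2 were higher in the pooled interstitial populations and 1 did not pass. Over all 14095 genes tested, 28.7% were higher in AM and 35.9% were higher in the interstitial populations, with a median log2 difference of 0.1. Krt78, a type II keratin, was at 3.16 ± 0.213 CPM in AM and 0.0542 ± 0.108 in the interstitial libraries (edgeR adjusted p = 1.77e-06). Krt1, a type II keratin of differentiating epidermis, had 18, 15 and 22 counts in AM and 0 in all 9 interstitial libraries, which makes it at least 56.1-fold higher in AM against 3 counts over the group (edgeR adjusted p = 1.59e-05). Krt7, a type II keratin of simple and glandular epithelium, went the other way, with 4, 1 and 0 counts in AM and 6 to 53 in the interstitial libraries (log2 difference 4.11 ± 0.83 SE, edgeR adjusted p = 0.000418). Krt10, a type I keratin of the epidermis, was likewise higher in the interstitial libraries (2.05 ± 1.0 against 0.262 ± 0.109 CPM, edgeR adjusted p = 6.93e-05). Krt80 was at 13.7 ± 3.07 CPM in AM and 13.9 ± 6.02 in the interstitial libraries and did not pass (edgeR adjusted p = 0.623).

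The genes around Krt79 on chromosome 15 were described by position. Within the type II cluster, Krt78 starts 14 kb from the start of Krt79 on the increasing side of the coordinates, Krt8 64.0 kb and Krt18 87.9 kb. Krt4, Krt76, Krt77 and Krt1 lie on the decreasing side and had 1, 12, 4 and 55 counts in AM, against 0, 0, 1 and 0 in the interstitial libraries. Krt72, Krt73 and Krt2, farther out on the same side, had 0 counts in all libraries. Eif4b, a translation factor past the end of the cluster, was at 118 CPM in AM and 115 CPM in the interstitial libraries. The keratin genes next to Krt19 on chromosome 11 (Krt15, Krt13, Krt9 and Krt14 among them) had 0 counts in AM. Low counts near Krt79 were therefore seen in AM at 5 keratin genes, while the 2 simple-epithelium keratins beyond Krt78 were no higher in AM than in interstitial cells.

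**Figure D2:**
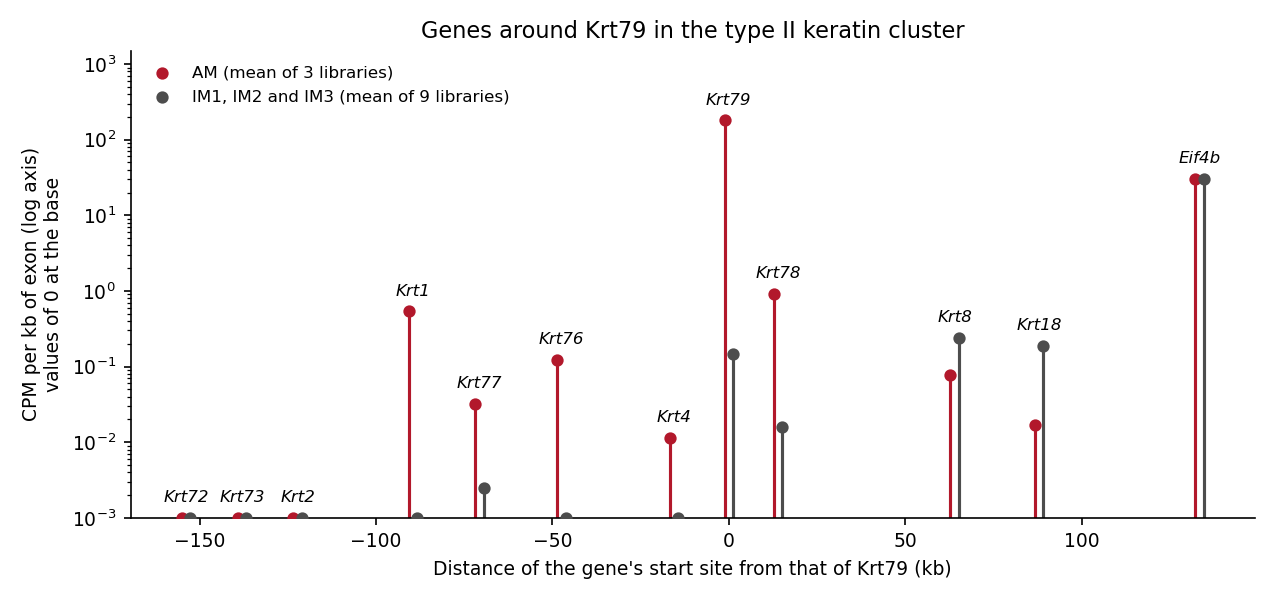
Mean level per kb of exon (log axis) of the genes around Krt79, by the distance between start sites in kb, in AM (mean of 3 libraries) and in the interstitial populations (mean of 9 libraries). Krt79 stands at 180 CPM per kb in AM, Krt78 and Krt1 follow at 0.92 and 0.536, and Krt8 and Krt18 are lower in AM than in the interstitial libraries.

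The adhesion molecules were next. Epcam (ENSMUSG00000045394, mm10 chr17:87635979-87651106, plus strand) had 72.0, 74.7 and 69.7 CPM in AM, or 72.1 ± 2.47 (SD, n = 3), the smallest relative spread of the set. The interstitial libraries held 0 to 6 Epcam counts each, which is at most 0.452 CPM, and the AM mean was 613 times that of IM1 and 237 times that of IM2. Against IM3, with 2 counts, the pooled ratio was 1570 with an exact 95% interval of 434 to 13000. Cdh1 (ENSMUSG00000000303, mm10 chr8:106603351-106670246, plus strand) had 104, 85.0 and 85.1 CPM in AM, or 91.4 ± 11.1 (SD, n = 3). Its interstitial levels ran from 0.301 CPM in IM2 replicate A to 3.52 in IM1 replicate B. Cdh1 was thus 49.4 times higher in AM than in IM1, 76.3 times than in IM2 and 133 times than in IM3, ratios that lie below those of Epcam.

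Perp (ENSMUSG00000019851, mm10 chr10:18845071-18857073, plus strand) had 236, 213 and 196 CPM in AM, or 215 ± 20 (SD, n = 3). It had 1, 17 and 10 counts in IM1, 10, 2 and 7 in IM2 and 0 in all 3 IM3 libraries. Against 3 counts over the IM3 group, Perp was at least 3130-fold higher in AM. Trim29 (ENSMUSG00000032013, mm10 chr9:43310763-43336125, plus strand), a TRIM family protein of stratified epithelium that is also known as a regulator of innate immune signalling in alveolar macrophages, had 105, 102 and 122 CPM in AM. It was at 0 in 6 of the 9 interstitial libraries and had 7 counts in all of them together, the fewest of the 8 genes that passed the filter. Its pooled AM to IM3 ratio of 4750 rested on 1 count, with an exact 95% interval of 852 to 188000.

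Plet1 (ENSMUSG00000032068, mm10 chr9:50494525-50505482, plus strand), a surface protein of epithelial progenitors in hair follicle and thymus, had 418, 375 and 365 CPM in AM, or 386 ± 28.1 (SD, n = 3). The interstitial levels were 2.1, 1.59 and 0.714 CPM in IM1, 1.81, 0.281 and 0.568 in IM2, and 0.132, 0.147 and 0.0677 in IM3. Every IM3 library was below every IM1 and IM2 library, and the AM mean was 263, 436 and 3340 times the means of IM1, IM2 and IM3. Of its 1947 exonic bases, 261 (13.4%) overlap the antisense gene Plet1os, and reads were counted without strand, so reads from that stretch cannot be assigned to either gene. Per kb of exon, Plet1 was at 198 CPM in AM, between Krt19 and Krt79, and Perp was at 113, Spint1 at 58.7, Trim29 at 38.7, Epcam at 35.4 and Cdh1 at 20.

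Spint1 (ENSMUSG00000027315, mm10 chr2:119237362-119249527, plus strand) differed from the other 9 in its interstitial pattern. It encodes HAI-1, a Kunitz-type inhibitor of the membrane serine proteases matriptase and hepsin and of the activator of hepatocyte growth factor. It had 174, 159 and 155 CPM in AM, 6.82, 8.42 and 14.3 in IM1, 19.5, 31.7 and 35.9 in IM2, and 136, 150 and 151 in IM3. The 4 populations did not overlap, in the order IM1, IM2, IM3 and AM, and the IM3 mean was 89.7% of the AM mean. The mean ± SD of IM3 (146 ± 8.7, n = 3) overlapped that of AM (162 ± 9.98, n = 3).

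The genes were chosen on AM against the other populations, and differences among the interstitial populations were tested with edgeR over all 14095 genes. These differences are independent of that choice only if AM RNA in the interstitial libraries plays no part in them, which was not tested. The low-count filter was applied over the 4 populations, and some of the 8 genes passed it only through AM, the group they were chosen on. Within the populations compared, 4 passed between IM1 and IM2 and between IM1 and IM3 (Krt19, Cdh1, Spint1 and Plet1) and 3 between IM2 and IM3 (Krt19, Cdh1 and Spint1). For the others the p-value is given beside the counts and is not read as a call. Between IM1 and IM2, Spint1 alone passed the threshold. It was 2.95 times higher in IM2 (log2 difference 1.55 ± 0.24 SE, edgeR adjusted p = 0.00316), and higher in every IM2 library than in every IM1 library. In this comparison 1.22% of all genes tested were higher in IM2 and 0.49% in IM1, 241 genes in all, or 392 with a replicate block. The call on Spint1 was held with the block but missed the threshold when only IM1 and IM2 were fitted (edgeR adjusted p = 0.059). The other 7 genes did not pass, with edgeR adjusted p between 0.347 and 0.992. This comparison leans on IM1 replicate B, without which 1904 genes passed; Spint1 passed without it as well.

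Between IM1 and IM3, Spint1, Krt19 and Plet1 differed. Spint1 was 14.8 times higher in IM3 (log2 difference 3.88 ± 0.26 SE, edgeR adjusted p = 3.56e-08). Krt19 was 7.91 times higher in IM1 (log2 difference -2.95 ± 0.58 SE for IM3 minus IM1, edgeR adjusted p = 0.00141), and Plet1 was 12.7 times higher (-3.54 ± 0.70 SE, edgeR adjusted p = 0.00161). These 3 genes passed as well when only the 2 populations were fitted. Perp and Krt79 entered the test through AM alone. Perp had 28 counts in IM1 and 0 in IM3, at least 9.69-fold more in IM1 (edgeR adjusted p = 0.00427). Krt79 had 23 and 2 counts, a ratio of 11.9 with an exact 95% interval of 2.95 to 104 (edgeR adjusted p = 0.0363); its libraries overlapped, since IM1 replicate C was at 0, and the p-value missed the threshold without IM1 replicate A or B or any single IM3 library. Cdh1 (edgeR adjusted p = 0.0708), Epcam (0.402) and Trim29 (0.557) did not pass. Of all genes tested, 11.7% were higher in IM3 and 12.7% in IM1.

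Between IM2 and IM3, Spint1 and Krt19 differed; of all genes tested, 4.94% were higher in IM3 and 6.49% were higher in IM2. Spint1 was 5.01 times higher in IM3 (log2 difference 2.32 ± 0.24 SE, edgeR adjusted p = 5.71e-06). Krt19 was 5.05 times higher in IM2 (edgeR adjusted p = 0.0258), and edgeR adjusted p was 0.0342 with only IM2 and IM3 fitted. Plet1 and Perp entered this test through AM alone. Plet1 had 37 counts in IM2 and 5 in IM3, a ratio of mean CPM of 7.66 (edgeR adjusted p = 0.0249), and Perp 19 and 0, at least 6.35-fold more in IM2 (edgeR adjusted p = 0.0232). All 3 values leaned on single libraries. They missed the threshold without IM2 replicate A, the library with the most Krt19 and Plet1 reads of its population, where edgeR adjusted p became 0.169 for Krt19, 0.152 for Plet1 and 0.0866 for Perp. They missed it as well without IM3 replicate B or C, Plet1 and Perp without IM3 replicate A, Perp without IM2 replicate C, and Krt19 without IM1 replicate A. Epcam (edgeR adjusted p = 0.0668), Krt79 (0.345), Cdh1 (0.505) and Trim29 (0.721) did not pass. Spint1 alone kept its call in each of these fits.

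**Figure D3:**
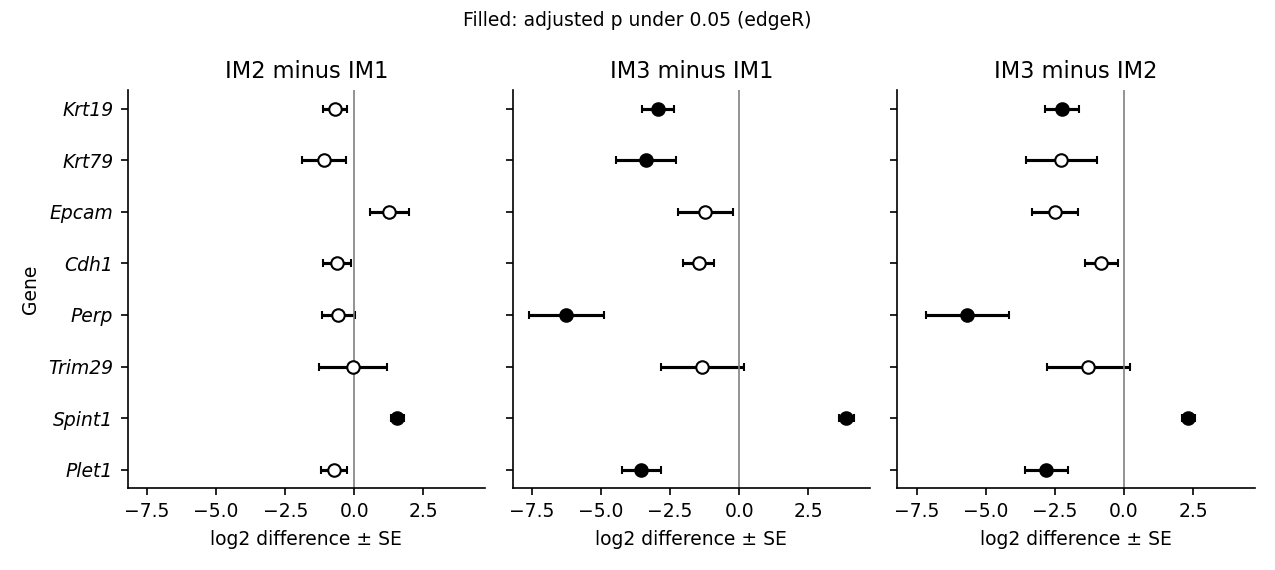
Fitted log2 differences (points, with SE as bars) between interstitial populations for the 8 genes that passed the low-count filter; filled points have an edgeR adjusted p under 0.05. Spint1 lies to the right in all 3 panels, and Krt19, Perp and Plet1 lie to the left with filled points in both comparisons with IM3. Perp in both, Plet1 between IM2 and IM3, and Krt79 were tested through their AM level alone, and the fitted value of Perp there depends on the prior count, since IM3 has 0 reads.

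The low interstitial levels of these genes were set beside those of the AM markers, each as a percent of its AM mean. The 8 genes had a median of 0.335% in IM1, 0.251% in IM2 and 0.042% in IM3, and the 12 AM markers had medians of 0.679%, 0.492% and 0.241%. The level was higher in IM1 than in IM3 for 7 of the 8 genes and for 9 of the 12 AM markers. Chil3, the most abundant AM marker, was at 0.361%, 0.126% and 0.0214% of AM, and Krt19 at 0.427%, 0.273% and 0.054%. Cidec, a lipid droplet protein, was at 0.411%, 0.235% and 0.0166%, and Plet1 at 0.38%, 0.229% and 0.03%. Other AM markers were less close to these: Marco was at 0.713%, 0.386% and 0.254%, and Car4 at 0.646%, 0.343% and 0.167%. Fabp1 did not fall from IM1 to IM2 (0.399%, 0.69% and 0.281%). Cidec, Marco, Car4 and Fabp1 fall outside the rule for named genes. Chil3 also differed between IM1 and IM3 (log2 difference -4.07, edgeR adjusted p = 5.66e-06). The mean levels of Krt19, Plet1, Perp and Krt79 thus fell with those of most AM markers from IM1 to IM3. Single libraries were less uniform: IM1 replicates A, B and C had 2776, 2861 and 1893 Chil3 counts. Plet1 had 24, 24 and 11 there and Krt79 14, 9 and 0, but Krt19 had 22, 52 and 57 and Perp 1, 17 and 10. The part of AM RNA in the differences between populations was not tested. Spint1, at 6.06%, 17.9% and 89.7%, had the opposite order, as did the integrin Itgax (2.42%, 9.95% and 49.9%), the lipid regulator Pparg (6.98%, 7.72% and 23.1%) and Siglecf (0.218%, 0.328% and 0.768%).

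**Figure D4:**
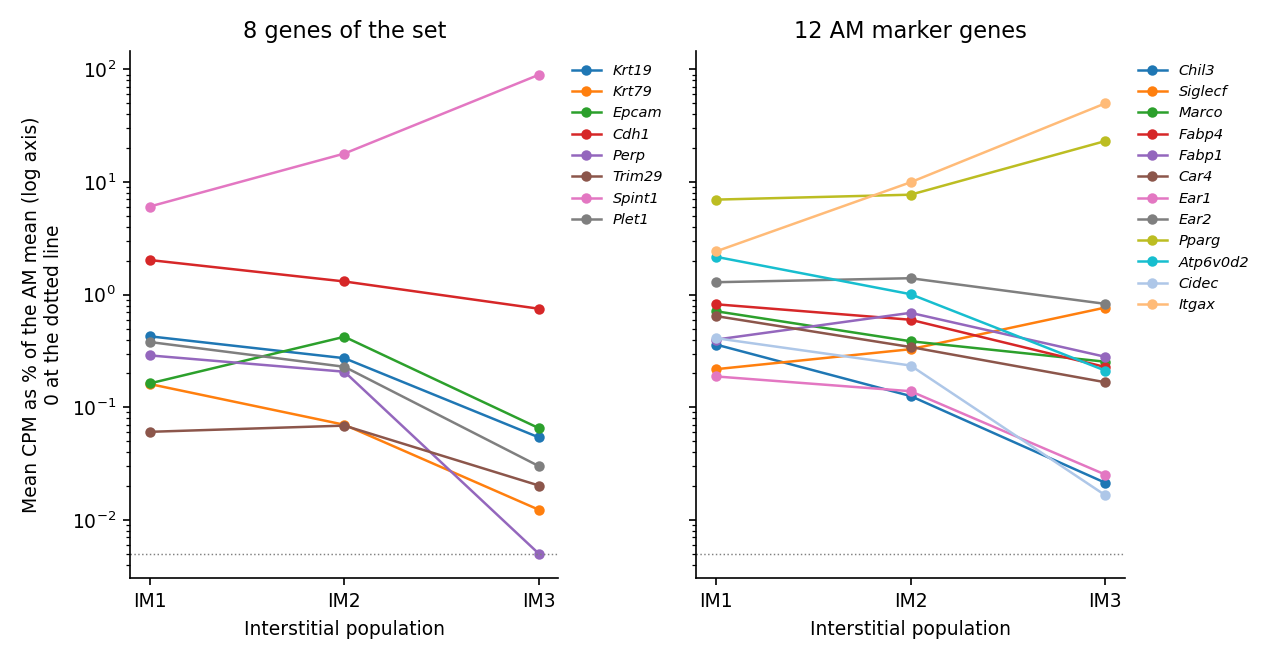
Mean CPM in IM1, IM2 and IM3 as a percent of the AM mean (log axis), for the 8 genes that passed the filter (left) and for 12 AM markers (right). Most lines of both panels fall toward IM3, where Krt19 is at 0.054% and Chil3 at 0.0214%, while Spint1, Itgax, Pparg and Siglecf go up.

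Whether epithelial cells in the sort could account for the AM levels was addressed with the defining markers of lung epithelium. Sftpc, the surfactant protein C of alveolar type 2 cells, had 8, 7 and 0 counts in the AM libraries whose Krt19 counts were 11170, 9343 and 9292. The interstitial libraries held 59 to 448 Sftpc counts and 2 to 57 Krt19 counts. Sftpb, Sftpd, Slc34a2 and Cxcl15, also of type 2 cells, were at 0 in AM, and Sftpb had 6 to 64 counts in the interstitial libraries. These 4 fall outside the rule for named genes and are the type 2 markers at 0 in AM. Sftpc and these 4 genes were thus lower in AM than in the interstitial libraries, and the rest of the type 2 list is given below. IM2 replicate A had the most Sftpc (448) and Sftpb (64) reads of the 12 libraries, and it was also the IM2 library with the most Krt19, Krt79, Epcam, Perp and Plet1 reads. Cdh1 went the other way, with 4 counts against 20 and 30 in replicates B and C. The same library had the most reads in IM2 of the AM markers Chil3 (1501 against 411 and 833) and Car4 (56 against 25 and 24). It did not have the most of Siglecf (17 against 12 and 33) or Marco (20 against 31 and 18). The parts of epithelial RNA and of AM RNA in the low levels of these genes in IM2 replicate A were not tested.

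The whole lists were mixed. Over all 14095 genes tested, 35.9% were higher in the interstitial populations and 28.7% were higher in AM. Of 8 type 2 markers tested, 6 were higher in the interstitial populations and 1 in AM (edgeR), of 7 type 1 markers 5 and 2, of 3 club and secretory markers 2 and 1, of 3 ciliated markers 1 and 1, and of 2 mesothelial markers 2 and 0. Those higher in AM were Napsa of the type 2 list (82.2 ± 13.2 against 26.5 ± 21.7 CPM, edgeR adjusted p = 3.2e-08), Pdpn (7.31 ± 2.28 against 3.75 ± 1.17, edgeR adjusted p = 0.00469) and Akap5 (7.82 ± 1.31 against 2.95 ± 1.13, edgeR adjusted p = 3.88e-05) of the type 1 list, Bpifa1 of the secretory list (1.46 ± 1.07 against 0.411 ± 0.498, edgeR adjusted p = 0.0115) and Mlf1 of the ciliated list (3.96 ± 0.369 against 0.343 ± 0.24, edgeR adjusted p = 4.6e-07). Bpifa1 had 25, 4 and 32 counts in AM, and Mlf1 60, 59 and 48. Akap5, and below Aqp5, Igfbp2 and Clic5, fall outside the rule for named genes and were picked after their values were seen. The part of RNA from those cell types in the AM levels of the 10 genes was not tested. Of 10 type 2 markers 4 were at 0 in AM, of 9 type 1 markers 3 (Aqp5, Igfbp2 and Clic5), of 7 club and secretory markers 2, of 9 ciliated markers 2, of 6 mesothelial markers 5, and of 7 basal markers all 7, Krt5, Krt14, Krt15 and Krt17 included. Ager, of type 1 cells, had 5, 0 and 1 counts in AM and 12 to 80 in the interstitial libraries. Scgb1a1, of club cells, had 6, 11 and 8 counts in AM and 13 to 101 elsewhere. Foxj1, of ciliated cells, had 0, 1 and 4 counts in AM, and Msln, of the mesothelium, 5, 2 and 3. The summed type 2 list was at 174 to 196 CPM in AM and at 157 to 313 CPM in the interstitial libraries, and most of it was 3 genes: Abca3 (104 CPM in AM, 80.5 in the interstitial libraries), Etv5 (1.27 and 117) and Napsa. The summed ciliated list, at 191 to 208 CPM in AM and 154 to 386 elsewhere, was nearly all Tppp3. The summed club list was at 1.33 to 3.17 CPM in AM and 1.69 to 14.6 in the interstitial libraries. The summed type 1 list was at 16.6 to 21.4 and 26.1 to 37.5 CPM, the mesothelial list at 0.14 to 0.35 and 2.32 to 4.98, and the basal list at 0 and 0 to 0.953. The dendritic cell list summed to 12.8 to 17 CPM in AM and 37 to 128 elsewhere, and the eosinophil list to 0 and 0 to 1.22.

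**Figure D5:**
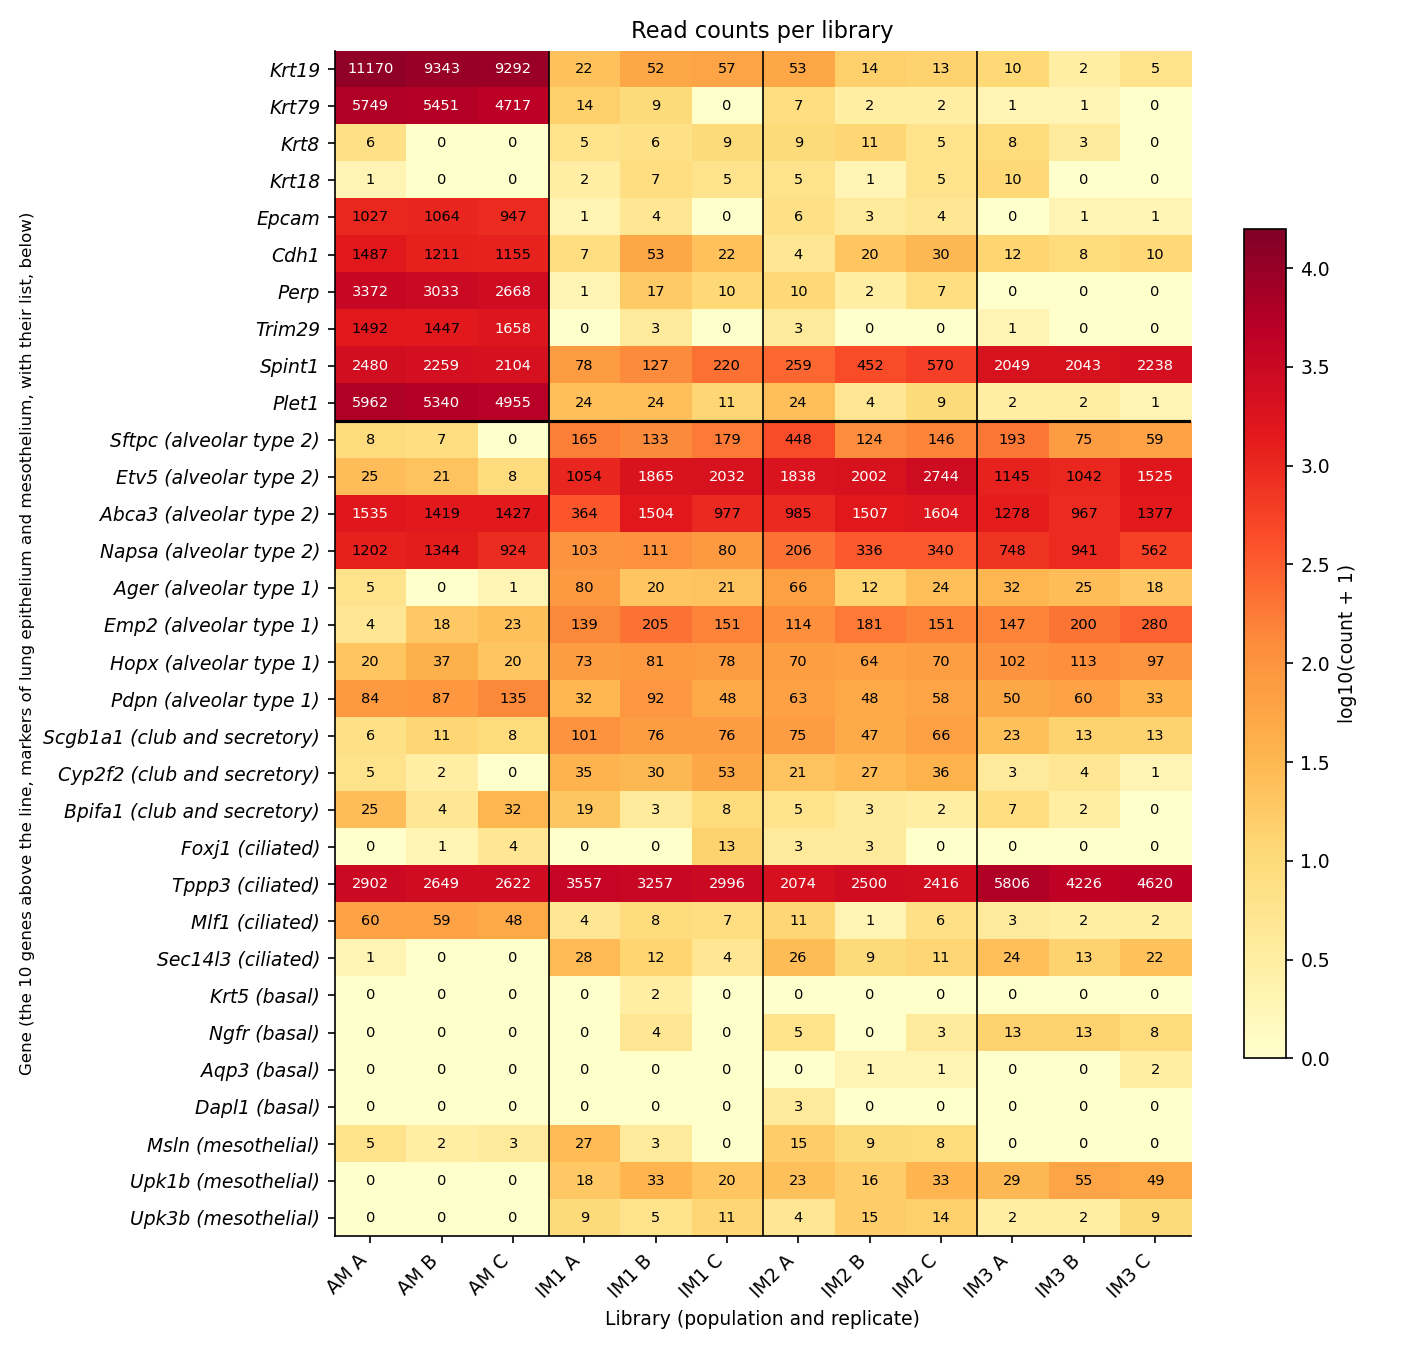
Read counts in each of the 12 libraries for the 10 genes (above the line) and for the first gene and the 3 with the highest mean level of each marker list of lung epithelium and mesothelium (below it, with the list in brackets); colour is log10(count + 1). In the 3 AM columns, 8 of the 10 genes have 947 to 11170 counts and Krt8 and Krt18 at most 6; Sftpc, Ager, Scgb1a1, Foxj1, Krt5 and Msln have 11 or fewer, while Abca3, Napsa and Tppp3 have 924 to 2902 and Mlf1 48 to 60.

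The partners of E-cadherin were present in AM. Of 12 adherens junction genes, 10 were tested: 2 were higher in AM, 6 were higher in the interstitial populations and 2 did not pass (edgeR). Their median log2 difference was 0.61 (interstitial minus AM), against 0.1 over all genes. Of all genes tested, 28.7% were higher in AM and 35.9% in the interstitial populations. Ctnnb1 (beta-catenin), which binds the tail of E-cadherin, was at 777 ± 21.3 CPM in AM and 237 ± 36.8 in the interstitial libraries (log2 difference -1.71 ± 0.12 SE, edgeR adjusted p = 5.18e-09). Ctnna1 (alpha-catenin), which links it to actin, was lower in AM (148 ± 7.79 against 244 ± 17.8 CPM, edgeR adjusted p = 7.01e-06). Jup (plakoglobin), shared by adherens junctions and desmosomes, was at 199 ± 3.05 and 169 ± 40.4 CPM and did not pass (edgeR adjusted p = 0.109). Cdh2 (N-cadherin) had 0 counts in AM and 3 in the interstitial libraries.

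Other desmosome genes did not share the pattern of Perp. Of 11 on the list, 7 had 3 or fewer counts in all AM libraries together, and none was higher in AM. Dsp (desmoplakin), which ties keratin filaments to the desmosome, had 1, 0 and 0 counts in AM, and the cadherins Dsg2, Dsg3, Dsc2 and Dsc3 had 0. The 2 genes tested, Pkp4 and Ppl, were both higher in the interstitial populations, where 35.9% of all genes tested were. Pkp4, a p120-like catenin, was at 7.52 ± 0.905 CPM in AM and 27.7 ± 11.3 elsewhere (log2 difference 1.77 ± 0.15 SE, edgeR adjusted p = 4.99e-08). Ppl (periplakin) had 8 counts in AM and 252 in the interstitial libraries (edgeR adjusted p = 0.000123).

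Tight junction genes were divided. Of 19, 13 were tested, 7 were higher in AM, 5 were higher in the interstitial populations and 1 did not pass (edgeR). The median log2 difference was -1.0. Of all genes tested, 28.7% were higher in AM and 35.9% in the interstitial populations. F11r (JAM-A), an adhesion molecule that leukocytes carry too, was at 505 ± 6.47 CPM in AM, and it rose from 146 CPM in IM1 and 191 in IM2 to 571 in IM3, the interstitial order of Spint1 (IM1 against IM3, edgeR adjusted p = 2.91e-07). Patj, a polarity scaffold, was at 103 ± 9.73 CPM in AM and 4.59 ± 2.11 elsewhere (log2 difference -4.61 ± 0.15 SE, edgeR adjusted p = 3.33e-13). Tjp1 (ZO-1) went the other way, with 4 counts in AM and 546 in the interstitial libraries (edgeR adjusted p = 5.76e-05). Cldn1 and Ocln, which seal the junction, were picked after their values were seen: Cldn1 had 1093, 954 and 836 counts in AM and 1 to 17 in each interstitial library, and Ocln 875, 739 and 599 against 6 to 40. Cldn18, the claudin of lung alveolar epithelium, had 1, 0 and 0 counts in AM, and Cldn3, Cldn4 and Cldn8 had 0. Cldn7 was higher in AM (1.87 ± 0.197 against 0.339 ± 0.236 CPM, edgeR adjusted p = 1.6e-05). Cldn23, not tested, had 9, 9 and 3 counts in AM and 5 in the interstitial libraries together. Cldn12 was at 3.93 ± 1.47 and 4.13 ± 1.48 CPM and did not pass (edgeR adjusted p = 0.892). These claudins fall outside the rule for named genes as well.

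The hemidesmosome list, whose genes anchor epithelium to its basement membrane, showed no single direction: of 6 tested, 2 were higher in AM, 2 in the interstitial populations and 2 did not pass (edgeR). Of all genes tested, 28.7% were higher in AM and 35.9% in the interstitial populations. Itga6, an integrin chain, was at 20.4 ± 3.31 CPM in AM and 105 ± 36.6 elsewhere (edgeR adjusted p = 2.16e-06). Plec (plectin), a linker of filaments, was at 152 ± 4.51 and 109 ± 26 CPM (edgeR adjusted p = 0.0148), and Dst (dystonin), another, at 17.9 ± 2.52 and 15 ± 2.97 (edgeR adjusted p = 0.222). Lad1, outside the rule for named genes, had 51, 53 and 44 counts in AM and 22 in the interstitial libraries together (edgeR adjusted p = 1.29e-06). Among the proteases and inhibitors related to Spint1, 3 of 8 were tested. Spint2 (HAI-2), the nearest relative of Spint1, was higher in AM (14.1 ± 2.12 against 2.13 ± 0.587 CPM, log2 difference -2.73 ± 0.22 SE, edgeR adjusted p = 1.67e-08), with no step toward IM3 (1.84 CPM there). Of the target proteases, St14 (matriptase) was at 2.67 ± 1.27 CPM in AM and 4.78 ± 1.33 in the pooled interstitial populations (edgeR adjusted p = 0.0188). Hpn (hepsin) was higher in the pooled populations (16.3 ± 7.39 against 10.5 ± 2.05 CPM, edgeR adjusted p = 0.023), with means of 20.2 CPM in IM1 and 21.5 in IM2 but 7.26 in IM3, which was below IM1 (edgeR adjusted p = 8.59e-05) and IM2 (edgeR adjusted p = 9.13e-05).

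Of 17 epithelial transcription and splicing factors, 9 had 3 or fewer counts in AM, among them Grhl2, Elf3, Elf5, Trp63, Foxa1, Foxa2 and Nkx2-1. Of the list, 3 were tested. Ovol2, a repressor known to keep epithelial cells from mesenchymal change, had 43, 26 and 22 counts in AM and 0 in all 9 interstitial libraries, at least 92.8-fold higher in AM (edgeR adjusted p = 4.8e-06). Grhl1, a grainyhead-like factor of the epidermis, was at 3.54 ± 0.351 CPM in AM and 0.554 ± 0.365 elsewhere (log2 difference -2.81 ± 0.38 SE, edgeR adjusted p = 8.83e-06). Ehf, an ETS factor of epithelium, was reversed, with 0 counts in AM and 10 to 109 in each interstitial library (edgeR adjusted p = 1.77e-06). Of 7 repressors of E-cadherin, 3 were tested and none of these 3 was higher in AM, where 28.7% of all genes tested were. Snai3, below the low-count filter, had 49, 10 and 25 counts in AM and 2 in the interstitial libraries together. Zeb2 was at 167 ± 13.2 CPM in AM and 335 ± 50.7 elsewhere (log2 difference 1.0 ± 0.13 SE, edgeR adjusted p = 4.96e-06), Snai2 had 0 counts in AM and 388 elsewhere (edgeR adjusted p = 1.95e-06), and Zeb1 was at 7.83 ± 1.93 and 8.61 ± 2.4 CPM (edgeR adjusted p = 0.679).

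The genes whose log2 levels ran closest to those of each member were listed by Pearson's r over the 12 libraries, as a description: the libraries fall into an AM and an interstitial cluster, which alone gives a high r. Krt19 was closest to Chil3 (r = 0.99), and Plet1 to the protease Mmp19 (0.9938), the inhibitor Serpinb1a (0.9937) and Chil3 (0.9924). Perp was closest to Sgo1, a protector of sister chromatid cohesion (0.9954), Epcam to the nuclear receptor Rxra (0.9864) and Cdh1 to the glycosyltransferase Ggta1 (0.9912). Krt79 was closest to the triglyceride enzyme Dgat1 (0.9866) and Trim29 to the mitochondrial protein Opa3 (0.9893). Spint1 had other neighbours. They were the immune receptor Havcr2 (0.9887), the leukocyte phosphatase Ptprc (0.9862) and the receptor Pilra (0.9823), and Havcr2 had means of 68.0 CPM in IM1, 100 in IM2, 221 in IM3 and 220 in AM.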

How the data were processed

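Steady-state expression was measured by RNA sequencing (SMART-Seq v4 amplification of 2 ng RNA from about 50000 sorted cells, Ion Proton) in 12 libraries deposited as 38 runs. Read counts per gene and run were made by the authors with featureCounts v1.5.0-p1, unstranded, on Ensembl 78 genes, leaving out reads that map to several places, per the file headers; alignment to mm10 with STAR 2.5.1b and the names DESeq2 1.8.1 and R 3.2.0 are per the submitters' processing notes. Runs were summed per library. The sums equalled the deposited counts per replicate in every cell (0 differing).

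Symbols came from GENCODE M21 (42462 of 43346 identifiers, 98.0%), and gene coordinates from the count table. Levels are CPM scaled by TMM factors, with SD over libraries. Differences were tested on the counts with edgeR 4.0.16 (R 4.3.3; filterByExpr with minimum count 10, 14095 genes, robust quasi-likelihood F test, 1 fit of all 12 libraries by population, two-sided, Benjamini-Hochberg adjusted p under 0.05), after a test on simulated data. A fold against a population with 0 counts is taken against 3 counts over the group; ratios resting on 1 to 3 counts carry an exact 95% binomial interval. Alternatives were other scalings, no low-count filter, DESeq2 1.42.0, a replicate block, only the populations compared, and leaving out each library.

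The replicate letters A, B and C were checked for pairing by the correlation of same-lettered deviations from the population means. It was 0.141 to 0.255 between IM1 and IM2 and 0.133 to 0.157 between IM2 and IM3, above 0.1 for every pair, but -0.097 to 0.135 between IM1 and IM3 and -0.068 to 0.039 with AM.

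The 10 genes and all gene lists were chosen with earlier results of these data known. The rule for named genes took the 10 and, of each list, the first gene and the 3 with the highest mean CPM. It also took every gene of a list with 5 or fewer tested, and the 3 most correlated genes per member. Some genes outside this rule are named too, and not every gene under it is described in the text. A gene that this rule would name is not reported here.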

Additional observations from a re-analysis of the deposited data

How the results depend on the processing

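Counts of members with an adjusted p under 0.05, those tested through AM included, were the same under DESeq2 size factors, upper-quartile scaling, the DESeq2 test and the replicate block, and differed by at most 1 with no low-count filter. Genes that passed between IM1 and IM2 numbered 241, and 941 with no filter, 591 with DESeq2, 392 with the replicate block and 71 with only the populations compared, and 110 to 1904 when 1 library was left out, the extremes without IM2 replicate B and without IM1 replicate B; it was 121 without IM1 replicate C and 123 without IM2 replicate C. Between IM1 and IM3, 3445 genes passed, or 2268 with only those populations, and between IM2 and IM3, 1611. With only the populations compared, fewer members passed the filter. Members with an edgeR adjusted p under 0.05 then numbered 0 in place of 1 (IM1 and IM2), 3 in place of 5 (IM1 and IM3) and 2 in place of 4 (IM2 and IM3). Leaving out 1 library gave 1 to 2 members between IM1 and IM2 (2 without IM2 replicate A), 4 to 6 between IM1 and IM3, and 1 to 5 between IM2 and IM3. Signs turned only for differences that had not passed. Over these fits, the log2 difference between IM1 and IM2 ran from -1.13 to 0.21 for Cdh1, from -1.12 to 0.11 for Perp and from -3.2 to 3.15 for Trim29, and between IM1 and IM3 from -1.84 to 0.25 for Epcam and from -3.18 to 1.85 for Trim29, each at its highest without IM1 replicate B. Trim29 was 0.49 and 0.56 between IM1 and IM2 without IM2 replicate B and C, and ran from -3.15 to 1.86 (without IM2 replicate A) between IM2 and IM3. The cause was not tested. With the replicate block, the same 1, 5 and 4 members had an edgeR adjusted p under 0.05. The 5 and the 4 include members tested through AM alone, which are not read as calls. The median log2 difference of all genes between the interstitial populations and AM was 0.1, 0.14 with upper-quartile scaling and 0.37 with no filter. Depth limits the interstitial values: 7 of the 8 genes have under 60 counts in each interstitial library, and Krt8 and Krt18 could not be tested.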

Other observations

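Of 10 intermediate filament genes other than the keratins, 7 were tested, 4 were higher in AM and 3 were higher in the pooled interstitial populations (edgeR, adjusted p under 0.05), where 28.7% and 35.9% of all genes tested were. Nes (nestin), a filament protein of progenitor and endothelial cells, had 0 counts in AM and 136 to 2702 in each interstitial library. Its mean was 19.2 CPM in IM1, 30.6 in IM2 and 142 in IM3, and IM3 exceeded IM1 (edgeR adjusted p = 1.11e-05) and IM2 (edgeR adjusted p = 0.000166). Des (desmin, of muscle) and Synm (synemin) had 0 counts in AM and 811 and 344 in the interstitial libraries, and were picked after their values were seen. Vim (vimentin), the usual filament protein of leukocytes, was at 1350 ± 118 CPM in AM and 846 ± 192 elsewhere (log2 difference -0.70 ± 0.11 SE, edgeR adjusted p = 6.15e-05). Lmna, of the nuclear lamina, was at 822 ± 60.2 and 629 ± 168 CPM (edgeR adjusted p = 0.00106).

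Snai3, a Snail family repressor below the low-count filter and picked after its values were seen, had 49, 10 and 25 counts in AM and 2 counts in the 9 interstitial libraries together. Snai2 had the reverse pattern, with 11 to 81 counts in each interstitial library and 0 in AM.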
